A study of Homo sapiens with 6 samples.

Results

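LDHA and GPD2 encode enzymes of 2 routes that turn cytosolic NADH back into NAD+, LDHA directly and GPD2 as the mitochondrial part of a shuttle. They were studied in HEK293 cells, an established human embryonic kidney line, with or without knockdown of the RNA helicase MOV10. The members are 2 of the 7682 genes of the deposited half-life table, picked by gene symbol because their mRNAs had lost stability after MOV10 siRNA. Half-life and the expression values behind it therefore chose them, and every value of LDHA and GPD2, in mock cells too, is given as a description, with no test. The siRNA cells and the mock-transfected cells shared 1 further treatment, 700 µM of 4-thiouridine (4sU), a uridine analogue built into new RNA, given for 60 min. Labelled RNA was pulled out through biotin, which gave 3 poly(A)+ libraries per condition: 4sU-labelled RNA (new), flow-through RNA (older, unlabelled) and total RNA. The labels list 6 samples, 1 for each condition and fraction, but the header names 2 replicate columns for each. Nothing in the sources used here says that these columns came from separate cultures, so the p-values below measure only the spread between columns, which may be technical.

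Glycolysis consumes NAD+ in the cytosol, and the inner mitochondrial membrane does not let NADH through. Lactate dehydrogenase, a tetramer of the A subunit (LDHA) and the B subunit (LDHB), regenerates NAD+ by reducing pyruvate to lactate. GPD2 is a flavoprotein of the inner mitochondrial membrane: it oxidises glycerol 3-phosphate and passes the electrons to ubiquinone, which completes a shuttle begun by the cytosolic enzyme GPD1. A second shuttle moves malate and aspartate across the membrane. LDHA is a classical target of HIF-1 and MYC and is prominent in dividing cells. MOV10 is known as a helicase that binds 3′ UTRs and takes part in mRNA decay.

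Both genes carried the 7 bases TACTGCA in their longest 3′ UTR annotated in GENCODE v29 (GRCh38). That sequence came from a search of these same data for short sequences in the UTRs of destabilised mRNAs, so its presence in mRNAs that lost stability is no independent evidence. The lines below show it, in capitals, within 30 bases of transcript sequence, read 5′ to 3′, for the 2 members and for PDHB and SLC25A13, genes of neighbouring steps that also hold it and whose half-lives are compared further on.
LDHA: aatgctgtacgTACTGCAtttgccccttga
GPD2: atttatgtcaaTACTGCAgagtatctttat
PDHB: acctggatttgTACTGCAagacctgactat
SLC25A13: ctttttgtgggTACTGCAgtaaagaacatc
The LDHA stretch lies in the 3′ UTR at chr11:18407545-18407574 on the plus strand, with the 7 bases at positions 275 to 281 of a UTR of 1144 bases, and all 6 annotated LDHA transcripts with a 3′ UTR that were searched hold it. The GPD2 stretch lies at chr2:156584414-156584443 on the plus strand, at positions 1507 to 1513 of a UTR of 3485 bases, and only 1 of 5 annotated GPD2 transcripts reaches it. The PDHB stretch is at chr3:58427949-58427978 and the SLC25A13 stretch at chr7:96121135-96121164, both on the minus strand. The files do not say which transcripts these cells used. The search covered the sense strand only. TACTGCA was found in 664 of the 5664 tested genes with an annotated UTR (11.7%). None of the 2351 distinct mature human miRNA sequences in RefSeq had a seed (bases 2 to 8) that is its reverse complement, UGCAGUA (0 of 2351). Shorter seed matches were not searched. The sequence of the siRNA itself was not compared, and the labels list no control siRNA beside mock transfection. The match is a description of letters and says nothing of a bound factor.

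In total RNA, LDHA mRNA had a level of 110 and 114 in MOV10 siRNA cells, against 265 and 275 in mock cells, in the authors' normalised units. Its siRNA values were 41.5% of its mock values and did not overlap them. In such bulk RNA, fewer cells that hold the mRNA and less mRNA per cell cannot be told apart. GPD2 mRNA was far scarcer on this scale, at 4.86 and 5.19 in MOV10 siRNA cells, against 12.9 and 14.4 in mock cells, or 36.7% of mock. The unit is not named in the header and it is not known whether it is per length, so the levels of the 2 genes are not compared as molecules. The siRNA columns of 30.8% of the 6064 tested genes were likewise all below the mock columns in total RNA, and those of 29.9% were all above; 14.3% of genes passed the test as lower. By size the members lay far out: centred on the median gene of each column, the log2(value + 1) change in total RNA was -1.24 for LDHA, at rank 9 from the lowest of 6064 genes, and -1.26 for GPD2, at rank 7. The pseudocount of 1 understates the change of a low gene such as GPD2. MOV10 itself, the siRNA target, had a total RNA level of 3.53 and 3.64 in MOV10 siRNA cells, against 13.1 and 14.6 in mock cells. It was not among the tested genes. Its flow-through RNA was 5.13 and 5.38 in MOV10 siRNA cells, against 19.6 and 19.3 in mock cells. In labelled RNA it had 2.55 and 2.63 in MOV10 siRNA cells, against 2.95 and 3.2 in mock cells. Its half-life was 732 and 1012 min in MOV10 siRNA cells, against 2115 and 1985 min in mock cells. A lower level mainly in older RNA was thus not particular to LDHA and GPD2.

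New RNA did not show the difference that LDHA and GPD2 had in total RNA. In 4sU-labelled RNA, LDHA stood at 108 and 107 in MOV10 siRNA cells, against 102 and 90.7 in mock cells, so that its siRNA columns were slightly above the mock columns. The median gene of the labelled RNA moved by 0.141 on the uncentred log2 scale, 54.3% of genes had non-overlapping columns with siRNA above mock and 14.3% with siRNA below, and against the median gene the LDHA change was 0.03. GPD2 stood at 5.50 and 6.14 in MOV10 siRNA cells, against 6.12 and 5.94 in mock cells; the columns overlapped and the centred log2 change was -0.18. Among 6064 genes these changes held ranks 3267 (LDHA) and 1226 (GPD2) from the lowest, both well inside the bulk of genes.

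The lower values lay in the older RNA. In flow-through RNA, LDHA had 173 and 176 in MOV10 siRNA cells, against 422 and 417 in mock cells. GPD2 had 5.88 and 5.09 in MOV10 siRNA cells, against 17.2 and 16.3 in mock cells. Neither gene's columns overlapped, which was also the case in this direction for 38.5% of genes and in the other for 42.2%. The centred log2 change was -1.24 for LDHA, at rank 40 from the lowest, and -1.44 for GPD2, at rank 21. In mock cells the order of levels was the same for both genes, with flow-through highest, then total, then labelled RNA, and no columns of neighbouring fractions overlapped. In MOV10 siRNA cells the LDHA order was the same, with total RNA (110 and 114) only just above labelled RNA (108 and 107). The GPD2 order in MOV10 siRNA cells was not resolved, since its flow-through columns overlapped those of both other fractions. The sources used here do not say how the fractions were normalised to each other, so an order across fractions does not describe molecules per cell.

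**Figure D1:**
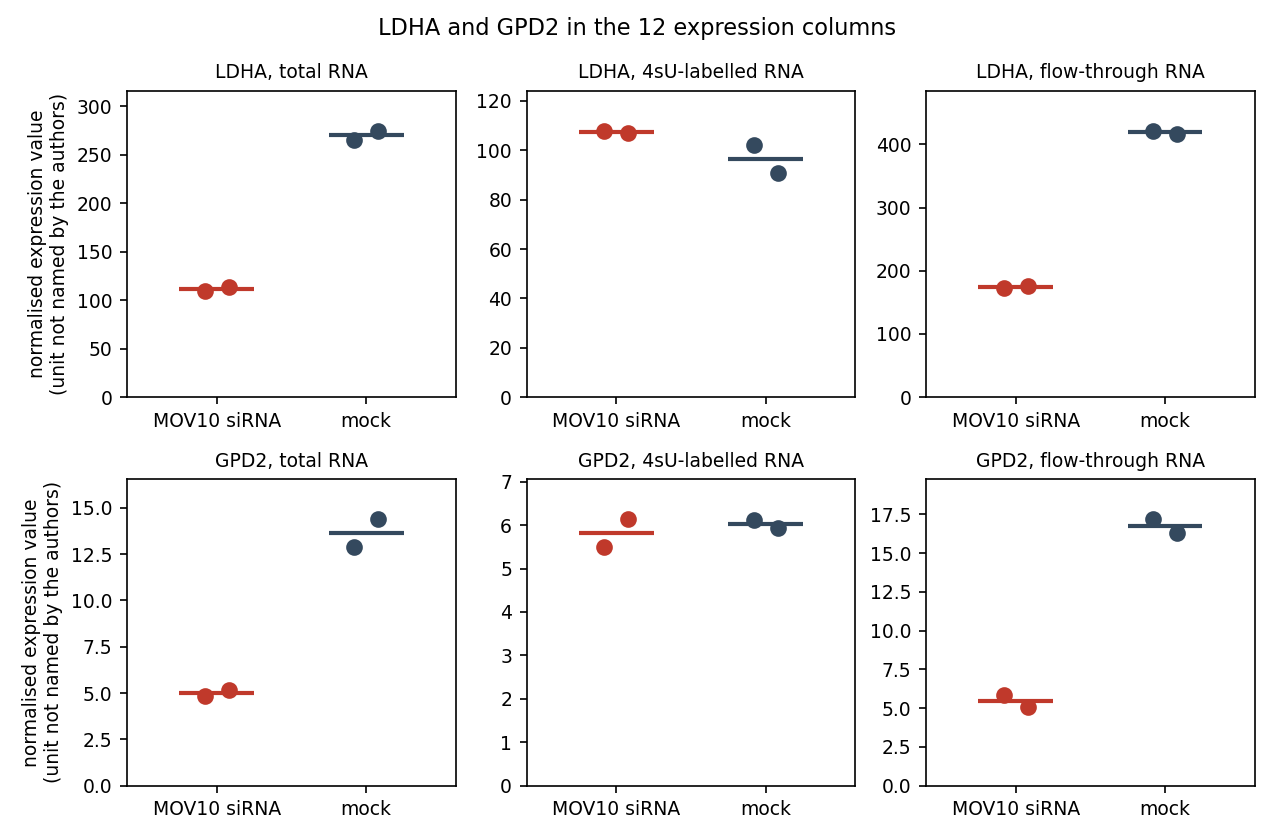
Normalised expression (authors' units, linear axes from 0 that differ between panels) of LDHA and GPD2 in total, 4sU-labelled and flow-through RNA; each point is 1 column, with MOV10 siRNA to the left of mock and a bar at the mean of the 2 columns. Total and flow-through RNA show the siRNA columns below the mock columns for both genes, while in labelled RNA they lie close together or overlap.

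The deposited half-lives of LDHA mRNA were 578 and 806 min in MOV10 siRNA cells, against 1300 and 1486 min in mock cells. Those of GPD2 mRNA were 456 and 497 min in MOV10 siRNA cells, against 1113 and 1144 min in mock cells. For neither gene did the columns overlap, as for 4.25% of genes in this direction and 33.3% in the other; 4.27% of genes passed the test as shorter and 1.88% as longer, and the rule itself picked LDHA and GPD2 on this measure. The deposited half-life of the median gene was 764 and 1030 min in MOV10 siRNA cells, against 742 and 810 min in mock cells, and changes were also taken relative to it. The direction of that median is uncertain, since half-lives recomputed from the fractions had medians of 559 and 513 min in MOV10 siRNA cells, against 625 and 677 min in mock cells. In the deposited half-lives, centred on the median gene, LDHA was 2.33-fold shorter-lived (log2 change -1.22, rank 12 from the lowest). GPD2 was 2.71-fold shorter-lived on the same centred scale (log2 change -1.44, rank 5). Without that centring the log2 changes were -1.03 for LDHA and -1.24 for GPD2.

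Seen against other transcripts of the same column, both mRNAs lay on the shorter-lived side of the distribution in MOV10 siRNA cells and on the longer-lived side in mock cells. In MOV10 siRNA cells 36.9% and 38.3% of genes had a shorter half-life than LDHA, against 80.3% and 83.1% in mock cells. For GPD2 these shares were 27.1% and 20.5% in MOV10 siRNA cells, against 72.6% and 69.4% in mock cells. The ratio of labelled to flow-through RNA, which grows as an mRNA turns over faster, needs no half-life model. It was 0.625 and 0.607 for LDHA in MOV10 siRNA cells, against 0.241 and 0.217 in mock cells. For GPD2 it was 0.934 and 1.21 in MOV10 siRNA cells, against 0.356 and 0.364 in mock cells. The median gene's ratio was 0.459 and 0.46 in MOV10 siRNA cells, against 0.419 and 0.401 in mock cells. That median depends on how the fractions were scaled to each other, which is not known, so it gives no direction of turnover over all genes. LDHA and GPD2 lay above the median ratio in MOV10 siRNA cells and below it in mock cells. Half-lives recomputed from the 3 fractions gave centred log2 changes of -1.22 for LDHA and -1.32 for GPD2.

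**Figure D2:**
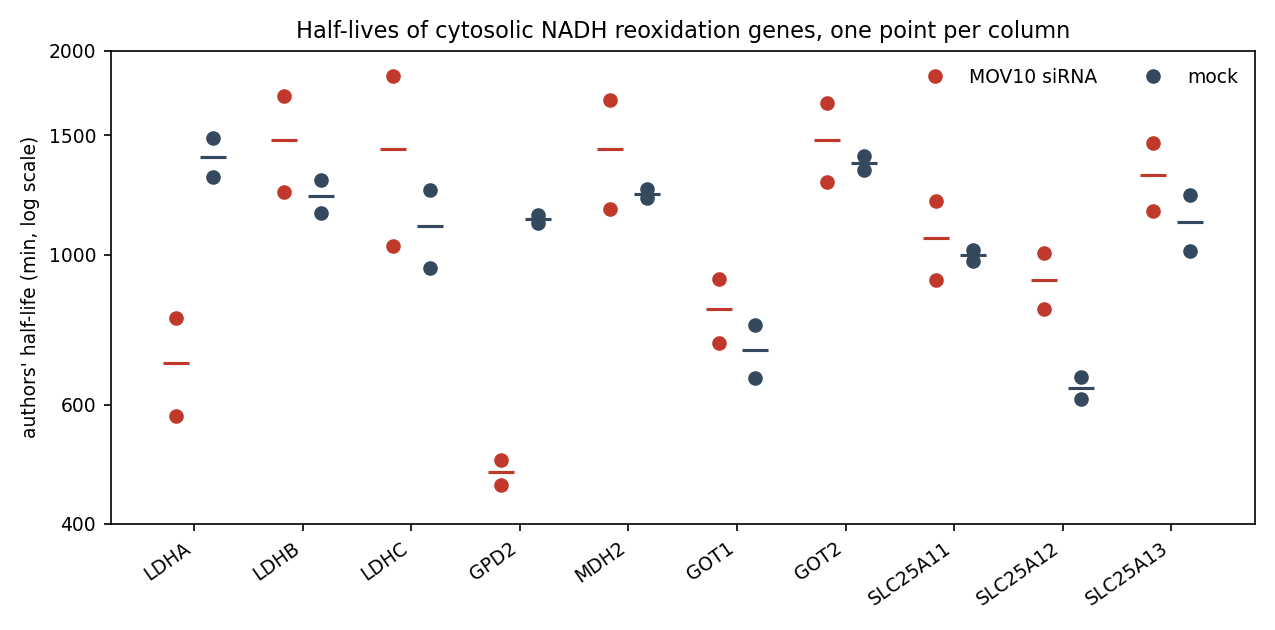
Deposited mRNA half-life in minutes (log axis) of the cytosolic NADH reoxidation genes; each point is 1 column, MOV10 siRNA in the left and mock in the right position of each gene, with a bar at the mean. LDHA and GPD2 have siRNA values (456 to 806 min) below mock values (1113 to 1486 min), SLC25A12 has its siRNA values (831 and 1006 min) above its mock values (612 and 659 min), and the columns of the other genes overlap.

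Labelled and flow-through RNA of mock cells alone show how the 2 mRNAs stood without the knockdown. The mock half-lives rest on these same columns, so the values of LDHA and GPD2 are a description here too. In mock cells LDHA had 102 and 90.7 in labelled RNA, against 422 and 417 in flow-through RNA, a difference of -1.22 on the centred log2 scale (SE 0.0514, n = 2 columns each). Of all 6064 genes, 81.3% had labelled columns below both flow-through columns and 14.8% above, 54.6% passed the test as lower and 33.2% as higher, and 16.7% had a lower value than LDHA. GPD2 had 6.12 and 5.94 in labelled RNA, against 17.2 and 16.3 in flow-through RNA, a difference of -0.45 (SE 0.0648), and 43.8% of genes were lower still. With columns centred so that the median difference is 0, an alternative added after seeing the data, LDHA was at -0.93 and GPD2 at -0.15. LDHB, the heart-type subunit that shares tetramers with LDHA, was at -1.34 in the same contrast, and MDH2, the mitochondrial malate dehydrogenase, at -1.51.

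LDHB did not follow LDHA. Its half-life was 1239 and 1716 min in MOV10 siRNA cells, against 1152 and 1288 min in mock cells, with overlapping columns and a centred log2 change of 0.07 (limma adjusted p = 0.7). Total LDHB RNA was 724 and 731 in MOV10 siRNA cells, against 744 and 769 in mock cells (log2 change -0.04, limma adjusted p = 0.64), and only flow-through RNA passed the test among the 4 readouts, at 1181 and 1213 in MOV10 siRNA cells, against 1086 and 1051 in mock cells (log2 change 0.18, limma adjusted p = 0.00215). The quotient of the LDHA over the LDHB value thus differed in total RNA, at 0.152 and 0.156 in MOV10 siRNA cells, against 0.357 and 0.358 in mock cells. In labelled RNA it was 0.381 and 0.386 in MOV10 siRNA cells, against 0.423 and 0.425 in mock cells. In flow-through RNA it was 0.147 and 0.145 in MOV10 siRNA cells, against 0.388 and 0.397 in mock cells. Part of this quotient is LDHA's own change, and it counts normalised values, not subunits. LDHC, the testis-type subunit, lay below the expression floor, with half-lives of 1028 and 1838 min in MOV10 siRNA cells, against 956 and 1245 min in mock cells. The longest annotated UTR of LDHB, of 200 bases, holds no TACTGCA. GENCODE v29 annotates 6 processed pseudogenes of LDHA. None has a row in the table (0 entries), and the sources used here do not say how reads shared with them were assigned, so LDHA's level is uncertain to that extent.

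The other genes of cytosolic NADH reoxidation were read from a list of 15 that also holds the isoenzymes, the cytosolic partners and the malate-aspartate shuttle. Of these, 10 had a row, 9 passed the floor of 5 units in mean total RNA in both conditions, and 7 remained without LDHA and GPD2; LDHAL6A, LDHAL6B, GPD1, GPD1L and MDH1 were not analysed here. In half-life, 0 of the 7 rose and 0 fell by limma at an adjusted threshold of 0.05, with 1 at an unadjusted p under 0.05 (24.3% of all genes). Their centred log2 changes ran from -0.12 to 0.33, with a median of 0.00, the value that the median over all genes also rounds to (0.0026). The malate-aspartate shuttle enzymes GOT1, the cytosolic aspartate aminotransferase, and GOT2, its mitochondrial counterpart, had half-life changes of 0.00 and -0.09. MDH2 had 1167 and 1692 min in MOV10 siRNA cells, against 1210 and 1250 min in mock cells, a centred log2 change of -0.00 (limma adjusted p = 0.994). The aspartate-glutamate carriers SLC25A12 and SLC25A13 were at 0.33 (limma adjusted p = 0.0901) and 0.03 (limma adjusted p = 0.878). SLC25A13, whose UTR holds the same 7 bases as LDHA and GPD2, thus had half-lives of 1160 and 1461 min in MOV10 siRNA cells, against 1013 and 1223 min in mock cells.

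Of the 7 genes, 0 rose and 1 fell in total RNA (2 fell when mock replicate 1 was left out, and 0 when MOV10 siRNA replicate 1 was). In labelled RNA 0 of them rose and 1 fell. The flow-through fraction had 3 that rose and 2 that fell. Over all genes, 12.9% rose and 14.3% fell in total RNA. The shares were 9.88% and 11.5% in labelled RNA, and 31.7% and 26.8% in flow-through RNA. SLC25A11, the carrier that exchanges malate for 2-oxoglutarate, was the gene that fell in all 3, and it was lower in new RNA too, unlike LDHA and GPD2. Its labelled RNA was 23.9 and 23.7 in MOV10 siRNA cells, against 31.6 and 30.4 in mock cells (log2 change -0.50, limma adjusted p = 0.00169). Its total RNA was 67.9 and 72.1 in MOV10 siRNA cells, against 83.4 and 94.5 in mock cells (log2 change -0.32, limma adjusted p = 0.00375; 0.0935 without MOV10 siRNA replicate 1). Its half-life was 916 and 1198 min in MOV10 siRNA cells, against 977 and 1017 min in mock cells, and was not called (limma adjusted p = 0.436). Flow-through RNA rose for LDHB, GOT1 and SLC25A12 and fell for GOT2 and SLC25A11; the GOT1 call (log2 change 0.12, limma adjusted p = 0.0411) was lost on leaving out any column, with adjusted p between 0.0769 and 0.197.

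**Figure D3:**
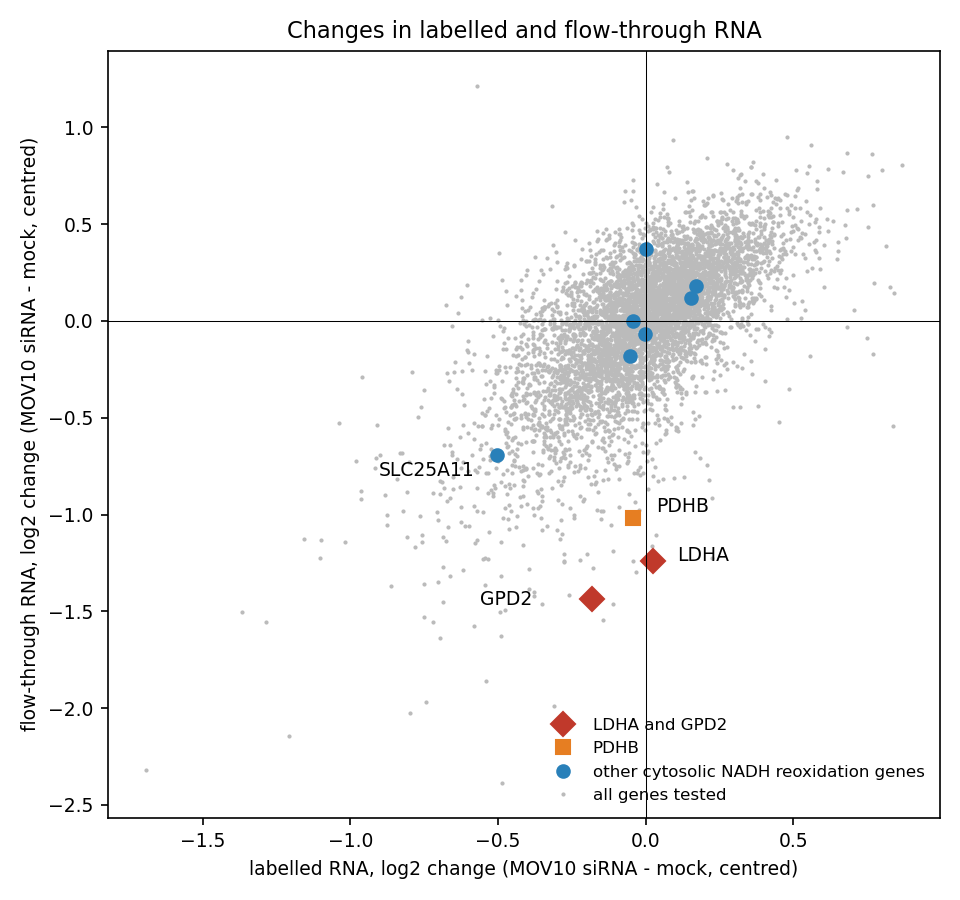
Centred log2 change after MOV10 siRNA in labelled RNA (horizontal axis) against flow-through RNA (vertical axis); grey points are all 6064 tested genes, red diamonds are LDHA and GPD2, the orange square is PDHB, and blue circles are the other genes of the cytosolic NADH reoxidation list. LDHA (0.03 and -1.24) and GPD2 (-0.18 and -1.44) lie low at near-zero labelled change, while SLC25A11 (-0.50 and -0.69) is lower on both axes.

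Across all tested genes 24.3% had an unadjusted p under 0.05 in half-life, 4.27% were called lower and 1.88% higher, and the list counts that follow are to be read against those shares. Of 11 tested genes of glycolysis, which makes the NADH that LDHA consumes, 0 rose and 0 fell in half-life by limma, with 2 at an unadjusted p under 0.05; the median log2 change was 0.02 and the range -0.22 to 0.27. TPI1, triose phosphate isomerase, had the lowest value, and PGAM1, a phosphoglycerate mutase, the highest.

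Among 10 tested genes of pyruvate and lactate handling, 1 fell in half-life and 0 rose, with a list median of -0.04. That gene was PDHB, the beta subunit of the E1 part of pyruvate dehydrogenase, the enzyme that competes with LDHA for pyruvate. Its half-life was 385 and 435 min in MOV10 siRNA cells, against 633 and 728 min in mock cells (log2 change -0.92, SE 0.11, limma adjusted p = 0.00913). Its total RNA was 16.3 and 16.4 in MOV10 siRNA cells, against 36.8 and 35 in mock cells (log2 change -1.07, limma adjusted p = 6.38e-07), with labelled RNA at 21.5 and 21.3 in MOV10 siRNA cells, against 21.4 and 18.8 in mock cells (log2 change -0.04, limma adjusted p = 0.728). Like GPD2, PDHB was lower in old and total RNA with overlapping columns of new RNA, where LDHA's siRNA columns were above its mock columns. The PDHB UTR of 445 bases holds TACTGCA in all 4 annotated transcripts searched. The half-life call held on leaving out each column (limma adjusted p between 0.0157 and 0.0487) and was lost without centring, as was that of each of the 14 named genes called in half-life. SLC16A1, a lactate and pyruvate exporter, had a half-life change of 0.21 (limma adjusted p = 0.245), and PDK1, a kinase that inhibits pyruvate dehydrogenase, 0.25.

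On the side of GPD2, 6 other dehydrogenase genes that feed electrons to ubiquinone were tested. In half-life 0 rose and 0 fell by limma, with 2 at an unadjusted p under 0.05, and the median log2 change was 0.09. They ranged from -0.30 for ETFB, a subunit of the electron transfer flavoprotein, to 0.34 for SDHD, a membrane anchor of succinate dehydrogenase. Of 7 tested genes that make or use glycerol 3-phosphate, the substrate of GPD2, 0 rose and 0 fell in half-life by limma, with 2 at an unadjusted p under 0.05, a median of -0.06 and a range of -0.34 to 0.27. In total RNA 2 of these 7 genes rose and 1 fell by limma (12.9% and 14.3% of all genes). The gene that fell was AGPAT1, an acyltransferase gene (log2 change -0.38, limma adjusted p = 0.00231). GK, glycerol kinase, which makes that substrate from glycerol, was 1 of those that rose. It had 62.2 and 62.6 in MOV10 siRNA cells, against 44.6 and 43.6 in mock cells (log2 change 0.51, limma adjusted p = 0.000129). The GK half-life change of 0.22 was not called (limma adjusted p = 0.245). Among 9 tested genes of NAD synthesis and other NAD(H) enzymes, 0 rose and 0 fell in half-life by limma, with 3 at an unadjusted p under 0.05 and a median of -0.08. Its lowest value was that of ME2, the mitochondrial malic enzyme, at -0.42 (limma adjusted p = 0.0831).

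LDHA is controlled by HIF-1 and MYC, so regulators of both and targets of HIF were also listed. Targets of MYC were not listed, and MYC and MYCN themselves had no row. Of 7 tested regulators 1 fell in half-life and 0 rose: ARNT, the partner subunit of HIF-1, at 591 and 920 min in MOV10 siRNA cells, against 919 and 1013 min in mock cells. The ARNT columns overlapped, and the call (log2 change -0.58, limma adjusted p = 0.027) was lost without MOV10 siRNA replicate 1 (0.0809), without mock replicate 1 (0.122), without mock replicate 2 (0.115) and with the replicate number as a block (0.0561). Of 15 tested HIF targets other than LDHA, 1 rose in half-life and 0 fell, with a median of 0.03 and a lowest value of -0.29. The one that rose was P4HA1, a collagen prolyl hydroxylase subunit, at 0.44 (limma adjusted p = 0.0357, and between 0.0736 and 0.174 on leaving out each column). No other HIF target tested was as low as LDHA at -1.22, but LDHA had been chosen for its lost stability. In labelled RNA 0 of the 15 rose and 2 fell (9.88% and 11.5% of all genes), with a lowest change of -0.62. Total RNA had 1 that rose and 3 that fell (12.9% and 14.3% of all genes). Flow-through RNA had 4 that rose and 6 that fell (31.7% and 26.8% of all genes).

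**Figure D4:**
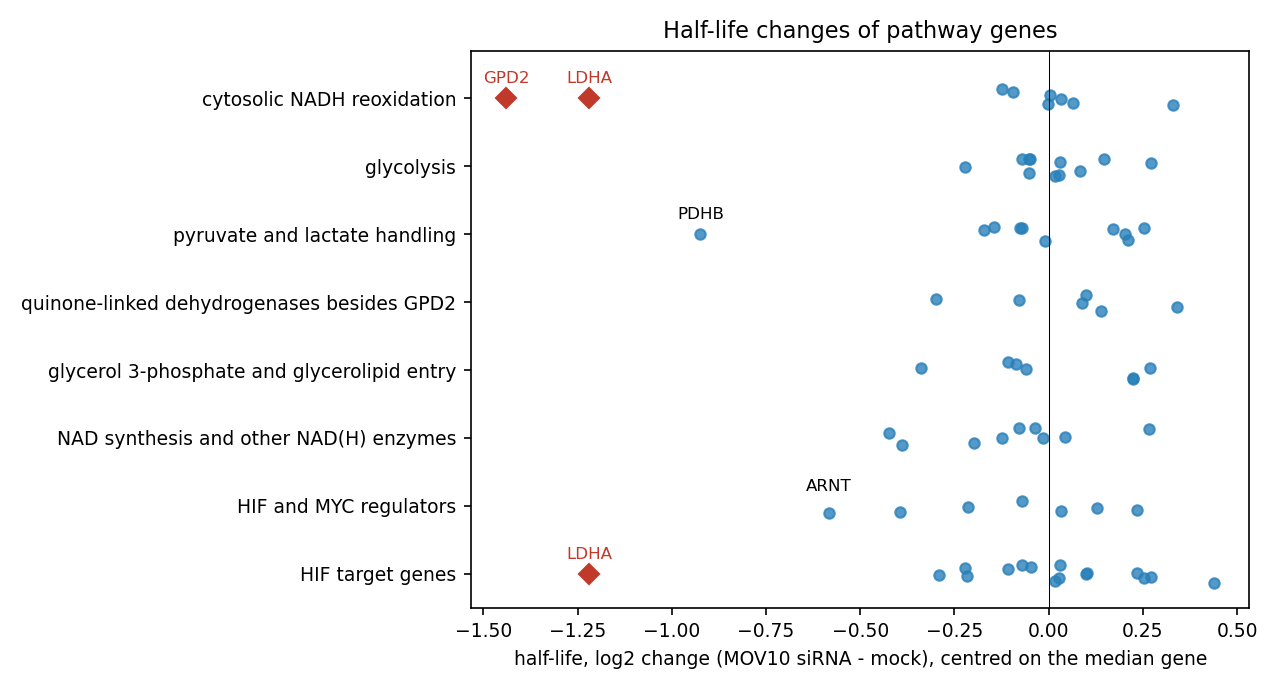
Centred log2 half-life change after MOV10 siRNA of the tested genes of the 8 pathway and regulator lists (marker lists not drawn), 1 blue point per gene, with small vertical offsets only to separate points; LDHA and GPD2 are red diamonds. The medians of these 8 lists without them run from -0.08 to 0.09, with LDHA (-1.22) and GPD2 (-1.44) at the far low end and PDHB (-0.92) nearest to them.

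Of 67 distinct tested list genes with an annotated UTR, 10 held TACTGCA (14.9%), beside 11.7% of all genes. In cytosolic NADH reoxidation it was found in 3 of 9 (33.3%), namely LDHA, GPD2 and SLC25A13, among HIF targets in 4 of 16, LDHA included, and in pyruvate and lactate handling in 2 of 10. LDHA, GPD2 or both are counted in the 10, the 3 and the 4. They and the sequence were chosen on lost stability, so these counts are no evidence about the lists. In cytosolic NADH reoxidation only SLC25A13 held it without being so chosen. Over all genes with TACTGCA, LDHA and GPD2 left out, 95 of 662 (14.4%) fell in half-life, against 154 of 5000 (3.08%) without it. The medians were -0.06 and 0.01. Because the sequence was picked on this contrast, those shares are a description. Among the list genes other than LDHA and GPD2, 1 with the sequence was called in half-life, PDHB at -0.92, and 3 without it. The other list genes with it were not called, with centred log2 changes of -0.42 for ME2, -0.21 for HIF1A, -0.11 for the stress-response gene DDIT4, 0.02 for the glycolytic kinase gene PGK1, 0.03 for SLC25A13, 0.22 for the acyltransferase gene AGPAT5 and 0.25 for PDK1.

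The genes most like LDHA and GPD2 were looked for by the Euclidean distance between centred log2 profiles over the 12 expression columns, among 6063 other genes. Nearest to LDHA were GNB1, a G protein beta subunit, at 0.5, UBQLN1, a ubiquilin, at 0.56, CALM3, a calmodulin gene, at 0.59, CSTB, the protease inhibitor cystatin B, at 0.67, and COPS3, a subunit of the COP9 signalosome, at 0.68. The median distance of all genes from LDHA was 2.25. Among the nearest to GPD2 were BTBD1 at 0.45, AP3M1, a subunit of the AP-3 adaptor, at 0.54, HMGA2, a chromatin protein, at 0.64, and MTFR1 at 0.68, with a median over all genes of 2.47. LDHA and GPD2 were 1.16 apart, so GPD2 was the 66th nearest gene to LDHA and LDHA the 54th nearest to GPD2. Of the near genes named here, GNB1, UBQLN1, COPS3, AP3M1 and MTFR1 held TACTGCA, while CALM3, CSTB, BTBD1 and HMGA2 did not. Over all tested genes with an annotated UTR, 11.7% held it. Every near gene named here was itself called lower in half-life, and the sequence came from destabilised mRNAs. Its presence among them is thus a description and no independent evidence.

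GNB1 resembled LDHA in total RNA, at 61.2 and 64.8 in MOV10 siRNA cells, against 124 and 134 in mock cells. Its labelled RNA was 45.0 and 44.7 in MOV10 siRNA cells, against 52.3 and 47.8 in mock cells, a centred log2 change of -0.29 where LDHA had 0.03. CALM3 was closer to LDHA in that readout, at 0.02. BTBD1, the nearest to GPD2, had 24.2 and 23.1 in total RNA of MOV10 siRNA cells, against 58.7 and 57.6 in mock cells, and a labelled RNA change of -0.49 where GPD2 had -0.18. HMGA2 stood farther off in labelled RNA, at -0.75. Since likeness was measured on the very columns compared, the shared direction of these genes in total and flow-through RNA follows from how they were found.

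Across the whole table the replicate columns had Spearman correlations over genes of 0.993 to 0.996 in expression and 0.98 to 0.982 in half-life. Read depth is unknown, because the values are not counts and most of the low values tried fitted no common read size. Of 6 HEK293 markers 2 had a row: VIM, vimentin, was at 214 and 214 in total RNA of MOV10 siRNA cells, against 217 and 249 in mock cells, and NEFL, a neurofilament, was the other. NEFL rose in half-life (log2 change 0.53, limma adjusted p = 0.033; 0.074 without MOV10 siRNA replicate 2, 0.133 without mock replicate 1 and 0.15 without mock replicate 2). Of 10 markers of other cell types 1 had a row, HBA1, an alpha globin gene, at 18.5 and 19.1 in MOV10 siRNA cells, against 14.5 and 18.5 in mock cells, and its part in any result was not tested.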

How the data were processed

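RNA was measured in HEK293 cells after MOV10 siRNA or mock transfection. The submitters' processing notes name TopHat2 2.06 and the build hg18. Per the labels' protocols, poly(A)+ TruSeq libraries were sequenced for 100 cycles, and half-lives came from a published method. Each gene has 12 deposited columns of a normalised expression signal, which the authors made with a tool and in a unit not given in the sources used here, and 4 columns of the authors' half-lives. The deposited header does not name the unit of the half-lives either. They were read as minutes from the size of medians recomputed from the fractions (first-order decay over 60 min). Recomputed medians were 559 and 513 min in siRNA and 625 and 677 min in mock columns. Deposited medians were 764 and 1030 in siRNA and 742 and 810 in mock columns, so the sizes match only roughly. Recomputed and deposited log2 values had Pearson correlations over genes of 0.964 to 0.98, which do not depend on the unit.

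Genes with a mean total RNA signal of at least 5 in both conditions were tested (6064 of 7682, 78.9%). Values were log2(value + 1), half-lives log2, each column centred on its median gene, and fitted with limma 3.58.1 (R 4.3.3) with a mean-variance trend and Benjamini-Hochberg adjustment over 6064 genes at 0.05, in 5 comparisons. The fits were tested on simulated data. The table is not counts, so no count test was run. Of the 250 lowest genes, 30 to 56 per pair of replicates fitted the best common read size (whole numbers up to 60, tolerance 1e-05 on the natural log scale of ratios). The mean over the factors tried was 5.17 to 5.41. The best factor put flow-through replicate 2 of MOV10 siRNA cells at 0.66 of the depth of replicate 1, and the other pairs at 1.01 to 1.23. It was the best of many factors and was not tested, so depth in reads is unknown and no counting interval is given.

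LDHA, GPD2, the 10 gene lists and the searched sequence were chosen with earlier results of these data known. Named are LDHA and GPD2, MOV10, the whole list of cytosolic NADH reoxidation, from each other list the extremes in half-life and every gene called in half-life, and the 5 genes nearest to each member, of which 1 is not reported here. HIF1A, PGK1, AGPAT5 and others were named for holding TACTGCA. UTRs were the longest annotated 3′ UTR per gene of GENCODE v29 (GRCh38), matched by symbol for 93.4% of tested genes. These coordinates are of GRCh38, not of hg18. Same-numbered columns did not deviate together between conditions (correlations of -0.0691 for half-life, 0.0457 for total RNA, -0.0367 for labelled and 0.111 for flow-through), so the number was not used as a block. Within mock cells, labelled and flow-through columns of 1 number are parts of the same RNA per the labels' protocols (correlation 0.105). The comparison of these fractions had been planned as a test of LDHA and GPD2, but is given as a description, because the mock half-lives rest on the same columns.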

Additional observations from a re-analysis of the deposited data

How the results depend on the processing

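Under every alternative that gave a value, LDHA and GPD2 kept the direction of their half-life, total and flow-through changes. A floor of 20 drops GPD2. Half-life calls (114 higher, 259 lower) numbered 63 higher and 94 lower with a floor of 20, 2 and 5 without centring, and 21 and 118 with the replicate number as a block; recomputed half-lives gave 192 higher. Without centring the half-life changes were -1.03 (LDHA) and -1.24 (GPD2), and the labelled RNA changes 0.16 (LDHA) and -0.05 (GPD2). The GPD2 total RNA change was -1.34 with a pseudocount of 0.5 and -1.42 with 0, and its flow-through change was -1.6 with 0. The LDHA flow-through change was -1.25 with a pseudocount of 0, -1.23 with no floor, -1.26 without centring and -1.27 with centring on the median difference, which was chosen after seeing the data. With a floor of 20, total RNA had 353 higher and 310 lower calls (783 and 868 with the floor of 5), labelled RNA 252 and 320 (599 and 700), flow-through RNA 923 and 744 (1925 and 1626), and labelled against flow-through RNA in mock cells 831 and 1460 (2016 and 3311). Without centring, total RNA had 451 higher calls, labelled RNA 1641 higher and 333 lower, and the mock comparison 819 higher and 4823 lower. With centring on the median difference that comparison had 2597 higher and 2595 lower, and the GPD2 difference in it was -0.15. The cause of these shifts was not tested, apart from the fewer genes a higher floor leaves.

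Leaving out 1 column at a time, which leaves a lone column assumed to vary like the other group, gave 1 to 75 higher and 48 to 173 lower half-life calls, with the lowest without mock replicate 1. Total RNA gave 322 to 834 higher and 534 to 931 lower calls, with the lowest without MOV10 siRNA replicate 1. Labelled RNA gave 379 to 498 higher and 447 to 647 lower calls, with the lowest without mock replicate 2. The LDHA half-life change ran from -1.25 to -1.19 and that of GPD2 from -1.59 to -1.29. In total RNA LDHA ran from -1.28 to -1.2 and GPD2 from -1.31 to -1.21. In labelled RNA LDHA ran from -0.01 to 0.06 and GPD2 from -0.24 to -0.12. In flow-through RNA LDHA ran from -1.25 to -1.24 and GPD2 from -1.53 to -1.34. In mock cells, labelled minus flow-through RNA ran from -1.26 to -1.19 for LDHA and from -0.47 to -0.42 for GPD2. With the replicate block the mock comparison gave -1.22 for LDHA and -0.45 for GPD2. The block cannot change these differences, because each group holds a column of each replicate number. Unknown read depth, 2 columns per group and GPD2's level at the floor limit these values.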
